A study of Rattus norvegicus with 61 samples.

Results

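The immediate early genes described here were Fos, Fosb, Junb, Egr1, Nr4a1, Npas4, Arc, Dusp1, Sik1 and Btg2. They were found by symbol through the NCBI Gene IDs of 2 count tables of rat brain, where all 10 were present among 14231 genes in the striatum and 14129 in the cerebellum, and all 10 passed the filter on low counts in each region. The study measured RNA by sequencing in tissue punches of male Sprague-Dawley rats that carried a polymer implant under the skin for 28 days from postnatal day 28. The implant held no compound (sham, 0%) or was loaded with 4-OH-PCB52, a hydroxylated polychlorinated biphenyl, at 1% (low), 5% (medium) or 10% (high), and the series asks how expression differs after this exposure. The striatum had 8 sham, 6 low, 8 medium and 8 high libraries, and the cerebellum had 7 sham, 8 low, 8 medium and 8 high libraries. Every rat, sham included, was male and carried an implant. The labels name 1 vendor and 4 cohorts of rats 3 weeks apart, but no cohort for a given rat.

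Immediate early genes are transcribed within minutes of a rise in calcium or cyclic AMP in a neuron, or of a growth factor in other cells, without need for new protein. Kinases carry the signal to factors that already sit on the promoter, mainly CREB on cyclic AMP response elements (CRE) and serum response factor on CArG boxes. The products include transcription factors that start a second wave of genes, proteins that act at the synapse, and enzymes that shut the signal off again. In brain tissue their transcripts are short-lived and report recent activity, handling or arousal of the animal, and dopamine and glutamate receptors drive them in striatal projection neurons.

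Among the 10 genes, Fos, Fosb and Junb encode basic leucine zipper subunits of the AP-1 transcription factor. Egr1 encodes a zinc finger factor, Nr4a1 an orphan nuclear receptor and Npas4 a neuron-specific helix-loop-helix factor that responds mainly to calcium. Arc encodes a protein that helps to remove AMPA receptors from the synapse. Dusp1 encodes a phosphatase that switches off MAP kinases, Sik1 a kinase that holds back CREB coactivators, and Btg2 an antiproliferative protein that takes part in mRNA deadenylation.

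The 250 bases before the annotated start of a gene (RefSeq, GRCr8) were at hand for 8 of the 10 genes, all but Fos and Arc. They were searched on both strands for the full CRE (TGACGTCA), its short core (TGACG), the CArG box and the EGR site (GCGGGGGCG). The full CRE holds the short core on both strands. The windows of Nr4a1, Dusp1 and Btg2 are shown because Nr4a1 and Dusp1 were among the genes closest to Fos in both regions, described further on, and because Dusp1 and Btg2 were the members with a full CRE. Capitals mark the short cores and, in Nr4a1, also the EGR site on the opposite strand.
Nr4a1 (chr7:134259888-134260137, plus strand): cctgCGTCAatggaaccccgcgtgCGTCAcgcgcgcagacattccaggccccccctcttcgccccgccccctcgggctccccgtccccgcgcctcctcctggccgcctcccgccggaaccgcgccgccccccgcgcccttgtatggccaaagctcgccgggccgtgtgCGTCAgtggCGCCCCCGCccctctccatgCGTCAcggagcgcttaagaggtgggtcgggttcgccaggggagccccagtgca
Dusp1 (chr10:17184603-17184852, plus strand): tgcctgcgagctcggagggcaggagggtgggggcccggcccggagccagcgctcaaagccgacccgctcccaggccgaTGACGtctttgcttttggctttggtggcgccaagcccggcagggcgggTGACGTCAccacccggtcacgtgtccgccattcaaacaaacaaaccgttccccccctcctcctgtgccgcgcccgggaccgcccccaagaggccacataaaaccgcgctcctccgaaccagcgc
Btg2 (chr13:48087691-48087940, minus strand): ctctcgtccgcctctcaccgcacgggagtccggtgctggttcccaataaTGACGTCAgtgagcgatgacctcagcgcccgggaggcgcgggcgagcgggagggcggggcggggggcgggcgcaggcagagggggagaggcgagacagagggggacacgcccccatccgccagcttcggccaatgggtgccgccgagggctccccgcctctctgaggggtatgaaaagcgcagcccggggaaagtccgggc
The Nr4a1 window held 4 short cores, which began 246, 226, 82 and 53 bases before the start, and an EGR site 73 bases before it. The full CRE began 124 bases before the start in Dusp1 and 201 bases before it in Btg2. Egr1 held 2 CArG boxes, CCATATTAGG and CCATATATGG, which began 105 and 83 bases before the start. The full CRE was in 2 of 8 windows, against 1.587% of 33469 windows of all genes. The short core was in 6 of 8 windows, against 18.217% of all. The CArG box was in 1 of 8 (1.497% of all) and the EGR site in 2 of 8, Nr4a1 and Sik1 (2.447% of all). A match is a description of the letters and not a site in use.

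Libraries held 5850199 to 10944066 reads in the striatum (median 7139973) and 5420458 to 10994625 in the cerebellum (median 7223058). Levels are given as CPM, read counts brought to a common library size with trimmed-mean factors, and they are compared between samples and not between genes, since they are not corrected for transcript length. Libraries are named by exposure and the number in their label, read as an animal number. The striatal libraries carried striatal markers and the cerebellar ones cerebellar markers. Ppp1r1b, a phosphatase inhibitor of projection neurons, averaged 3020 ± 1209 CPM in sham striatum and 275 ± 112 CPM in sham cerebellum (SD, n = 8 and 7). Gabra6, which encodes a subunit of the GABA-A receptor in granule cells, averaged 1.04 ± 1.65 CPM in sham striatum and 796 ± 136 CPM in sham cerebellum. A total of 8 striatal and 10 cerebellar libraries lay more than 1 log2 unit away from their region's median in the mean of ribosomal protein genes or of local neuron genes. They are called libraries standing apart, and results are given without them where that changed a statement. All 19 genes of the striatal projection neuron list were in the table and none was at 0 in sham 17, low 20 or high 13, yet their summed level was 1170, 1794 and 1929 CPM there, against group medians of 15140 (sham), 14540 (low), 18460 (medium) and 15740 (high). The list summed to 1170 to 18490 CPM in sham, 1794 to 18780 in low, 15580 to 22230 in medium and 1929 to 22850 in high libraries.

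In rats without the compound, most of the immediate early genes stood higher in the striatum than in the cerebellum. Arc ranged from 40.03 to 350.4 CPM with a median of 203 in sham striatum, against 20.9 to 25.5 with a median of 23.97 in sham cerebellum. Egr1 ranged from 33.4 to 135 CPM (median 107) in sham striatum and from 5.09 to 27.4 (median 19.5) in sham cerebellum. For both genes every striatal library was above every cerebellar one. Junb ranged from 30.4 to 191 CPM (median 100.1) in sham striatum and from 14.01 to 30.7 (median 18.8) in sham cerebellum, so that the groups met at a single pair of libraries. Fosb ranged from 3.34 to 19.9 CPM (median 14.5) in sham striatum and from 0.447 to 5.43 (median 1.36) in sham cerebellum. Npas4 ranged from 2.15 to 51.7 CPM (median 23.2) in sham striatum and from 0 to 9.59 (median 3.73) in sham cerebellum. Sik1 ranged from 4.02 to 20.6 CPM (median 12.4) in sham striatum and from 1.83 to 8.87 (median 4.32) in sham cerebellum. For Fosb, Npas4 and Sik1 the medians lay well apart while the lowest striatal libraries overlapped the highest cerebellar ones.

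By edgeR's quasi-likelihood test, with p values adjusted by Benjamini-Hochberg over 12616 genes and a threshold of 0.05, 7 of the 10 genes were higher in sham striatum than in sham cerebellum. Arc differed by a log2 fold change of 3.01 ± 0.51 (SE; adjusted p = 2e-06), Junb by 2.39 ± 0.43 (adjusted p = 6.26e-06) and Egr1 by 2.31 ± 0.49 (adjusted p = 9.48e-05). Npas4 differed by 2.40 ± 0.74 (adjusted p = 0.0065), Fosb by 2.31 ± 0.55 (adjusted p = 0.000489) and Sik1 by 1.43 ± 0.38 (adjusted p = 0.00161). The background was large, since 43% of all genes passed this test, with 20.9% of all genes higher and 22.1% lower in the striatum. Fitted values lay above 0 for 8 of the 10 genes and for 44.3% of all genes, and the median log2 difference was 1.87 over the 10 genes and -0.09 over all genes. DESeq2 called 7 of the 10 as well. In bulk tissue, fewer cells of a type and less RNA per cell cannot be told apart, and the regions hold different cell types.

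Btg2 also passed the test, at 0.70 ± 0.29 (edgeR adjusted p = 0.0494). However, its range of 8.02 to 48 CPM (median 13.4) in sham striatum covered the whole range of 8.35 to 19.5 (median 10.4) in sham cerebellum. The call lay at the threshold. It was made in 22 of 61 fits that each left out 1 library, and its adjusted p there ran from 0.013 without cerebellar sham 48 to 0.374 without striatal sham 49, where the difference was 0.33. It was also lost without the filter on low counts, with a filter at a mean CPM of 1 and without the libraries standing apart. In each of these settings 6 of the 10 genes passed, against 40.8%, 42.3% and 67.3% of all genes in that order. Without the libraries standing apart, the share of the 10 genes was thus no higher than that of all genes called in either direction. Fitted values there lay above 0 for 8 of the 10 genes, with a median of 1.78, and below 0 for 51.4% of all genes. In the main test the other 3 genes did not pass. Nr4a1 averaged 107 ± 70.6 CPM in sham striatum and 57.6 ± 47.3 CPM in sham cerebellum (SD, n = 8 and 7), a log2 difference of 0.89 ± 0.54 (edgeR adjusted p = 0.183). Fos averaged 21.4 ± 16.1 CPM in sham striatum and 35.2 ± 34.6 CPM in sham cerebellum, a difference of -0.72 ± 0.61 (edgeR adjusted p = 0.365). Dusp1 averaged 50.9 ± 25.3 CPM in sham striatum and 60.9 ± 25.8 CPM in sham cerebellum, a difference of -0.26 ± 0.34 (edgeR adjusted p = 0.574). With a block for the number in the label, read as the animal, the call of Nr4a1 was gained (log2 difference 0.96, edgeR adjusted p = 0.0171) and that of Btg2 was lost (0.29, adjusted p = 0.257). The ranges of Fos, Nr4a1 and Dusp1 overlapped widely, and a p above the threshold does not show that the regions are alike.

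**Figure D1:**
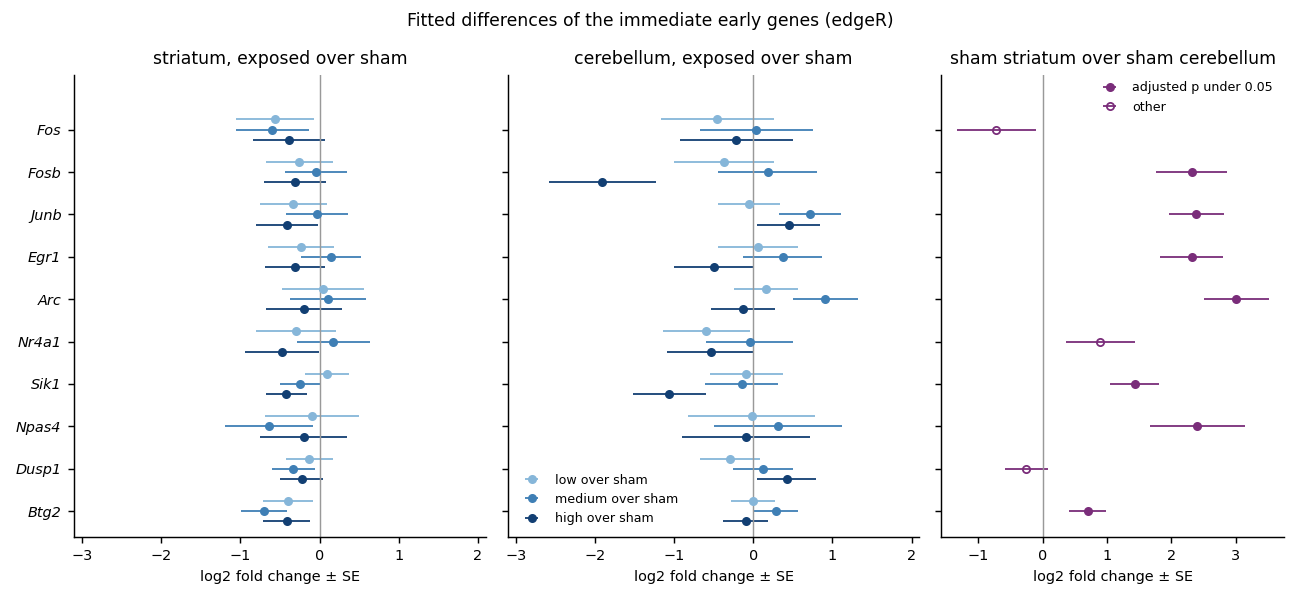
Fitted log2 fold changes of the 10 genes from edgeR, with standard errors computed from its F statistic. Shown are the low, medium and high loading over sham in the striatum (left) and the cerebellum (middle). The right panel shows sham striatum over sham cerebellum, with filled points at an adjusted p under 0.05. In the right panel 7 genes lie to the right of 0 with filled points, while no exposure difference in the other panels passed the test and most error bars cover 0.

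Other genes of the same pathway split between the regions, and their counts stand beside the 20.9% of all genes that were higher and 22.1% that were lower. Of 42 other rapid response genes tested, 15 were higher and 9 lower in sham striatum than in sham cerebellum, with a median log2 difference of 0.17. Egr3, a relative of Egr1, was higher by 7.68 ± 1.07, and Plk2, a kinase that weakens overactive synapses, by 3.71 ± 0.43. Dusp5, a nuclear phosphatase of ERK, fell by 3.73 ± 0.39 and Cited2, a coactivator-binding protein, fell by 1.79 ± 0.21 in striatum relative to cerebellum. Of 19 delayed activity genes, 10 were higher and 3 lower (median 1.46), among them Vgf, a secreted neuropeptide precursor (3.47 ± 0.46), and Nptx1, a synaptic pentraxin (-3.1 ± 0.63). Of 23 genes that carry signals to the nucleus, 8 were higher and 3 lower (median 0.01), among them Camk2a, a synaptic calcium kinase (4.17 ± 0.54), and Rps6ka1, a kinase below ERK (-3.18 ± 0.24). Of 14 glucocorticoid response genes, 3 were higher and 1 lower (median 0.41), among them Fkbp5, a chaperone that limits glucocorticoid receptor signalling (1.43 ± 0.23). The share called in the signalling list was close to the 43% of all genes and that in the glucocorticoid list was below it. All the genes named here passed edgeR's test, and the lists were chosen with earlier results of these data known.

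Within a region several immediate early genes were among the most variable transcripts between rats. In the striatum Npas4 ran from 1.45 CPM in low 20 to 52.5 CPM in sham 49, a 36.2-fold span, and its SD of log2 CPM within exposure groups was larger than that of 99.3% of 12267 genes. Arc ran from 14.8 CPM in low 20 to 374 CPM in medium 40 (98.4% of genes had a lower SD). Nr4a1 ran from 10.4 CPM in low 20 to 235 CPM in sham 32 (97.8%), and Fos from 2.84 CPM in medium 10 to 46.9 CPM in sham 49 (96.4%). Sik1 had the smallest SD of the 10 over all striatal libraries, at 4.06 to 20.9 CPM (77% of genes had a lower SD). The library low 20 was lowest for 6 of the genes. In the 3 libraries poorest in projection neuron transcripts, low 20, sham 17 and high 13, Egr1 stood at 10.3, 33.6 and 19.1 CPM. Arc stood at 14.8, 47.1 and 25.6 CPM there, and these values were at the low end of both ranges. High 44, where the projection neuron list summed to 6769 CPM, differed from them. Its mean log2 CPM over the 10 genes was 5.394, against 3.063, 3.839 and 4.001 in low 20, sham 17 and high 13. The cortical excitatory neuron list summed to 2063 CPM in high 44, where 6 of its 12 genes had their highest striatal level. That list summed to 905.3, 1560 and 644.9 CPM in low 20, sham 17 and high 13, against a median of 338.4 CPM in the high group. The part of the neuron content in these levels was not tested. Without the libraries standing apart, Npas4, Nr4a1, Fos and Arc still had a larger SD than 99.4%, 98.4%, 98.1% and 97.5% of genes. Dusp1 and Btg2 were then steadier than Sik1, with SDs larger than those of 73.65%, 84.65% and 89.4% of genes in that order.

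**Figure D2:**
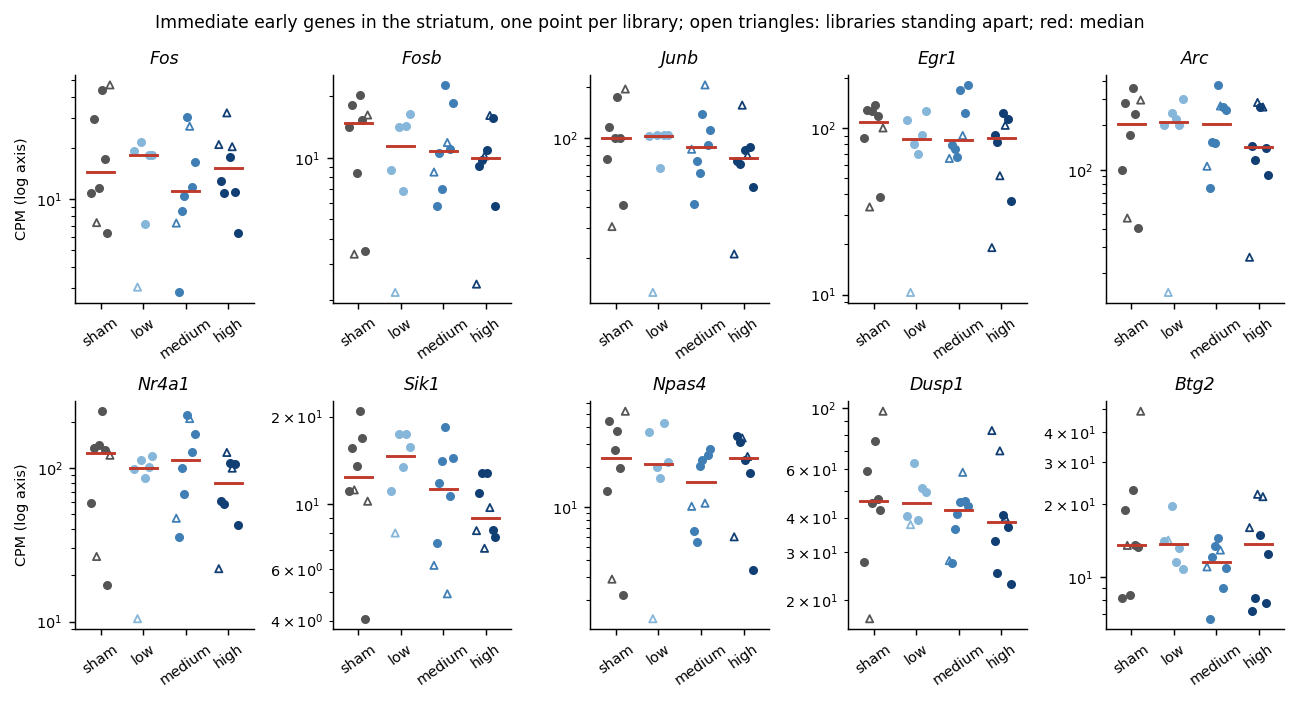
CPM (log axis) of the 10 genes in each striatal library by implant loading, with open triangles for libraries standing apart and red lines for group medians. Points of all 4 loadings overlap in every panel, and the span within a group is wider than the distance between medians.

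The cerebellum showed another order of spread. Fos ran from 0.254 CPM in low 20 to 78.6 CPM in sham 32, on 2 and 531 reads, and Npas4 from 0 in sham 1 to 14.7 CPM in medium 40. Their SD exceeded that of 98.9% and 98.6% of 11946 genes. For Npas4 in sham 1, 3 reads would be 0.318 CPM, so a level up to there was not detectable at this depth. Nr4a1 ran from 10.1 CPM in low 22 to 126 CPM in medium 40. Without the libraries standing apart, the SDs of Fos, Npas4, Nr4a1 and Fosb were larger than those of 99.97%, 99.96%, 99.6% and 99.5% of genes, while Arc, at 19%, varied less than most. Arc held between 13.04 and 39.6 CPM in all cerebellar libraries but medium 40, where it reached 203 CPM.

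Cerebellar medium 40 stood apart in several ways. It held 108 CPM of Junb, 76.7 CPM of Egr1, 12.3 CPM of Fosb and 126 CPM of Nr4a1, the highest cerebellar value of each. In the same library 9 of 12 genes of the cortical excitatory neuron list had their highest cerebellar level, none was at 0, and the list summed to 3139 CPM, against ranges of 1345 to 1884 (sham), 758 to 1917 (low) and 1227 to 1755 CPM (high). Its granule cell list, with none of 13 genes at 0, summed to 1940 CPM, against a median of 7618 CPM in the medium group. The part of this tissue content in the gene levels was not tested, and results of the medium loading are given with and without the library.

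Libraries rich in ribosomal protein transcripts differed in another way. The list of 75 ribosomal protein genes in the table summed to 365900, 184400 and 139000 CPM in high 43, high 28 and high 59 and to 93820 CPM in sham 48, against medians of 17150 CPM (sham) and 14720 CPM (high). In high 43, high 28 and high 59, Egr1 stood at 3.08, 2.61 and 1.61 CPM and in sham 48 at 5.08 CPM, below the sham median of 19.2 CPM. In the 3 high libraries Dusp1 stood at 153, 177 and 101 CPM and Junb at 47.6, 55.5 and 33.4 CPM, above the sham medians of 60.4 and 18.2 CPM. Sham 48 held 30.6 CPM of Junb, the highest of the sham group. Medium 24 came next in ribosomal protein transcripts, at 83640 CPM, and no medium library had less than 7.36 CPM of Egr1. Egr1 was thus low and Dusp1 and Junb high in the same high-loading libraries. In sham 48, which had no compound, Egr1 was low and Junb high as well. The part of the ribosomal content in this was not tested.

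**Figure D3:**
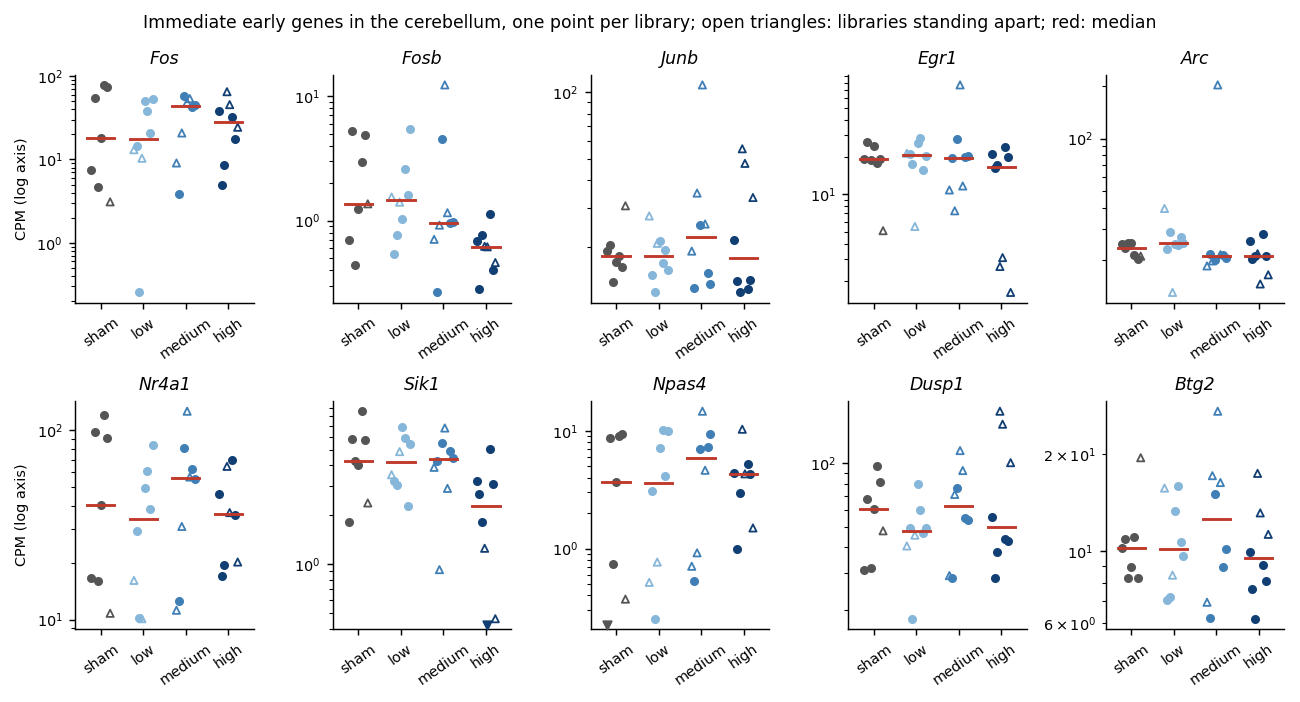
CPM (log axis) of the 10 genes in each cerebellar library by implant loading, with open triangles for libraries standing apart, red lines for group medians and filled triangles at the lower edge for libraries at 0. Fos, Nr4a1 and Npas4 spread widely in every group, Arc lies in a narrow band except for medium 40 at 203 CPM, and the high group of Fosb lies at 0.282 to 1.12 CPM.

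Whether 4-OH-PCB52 changed these genes in the striatum was asked by testing each loading against the 8 sham libraries, which the 3 comparisons share. No immediate early gene passed edgeR's test at any loading, where 0% of 12267 genes passed. At an unadjusted p under 0.05 there were 0 of the 10 genes at the low loading, 1 at the medium loading and 0 at the high loading, and DESeq2 called 0. The fitted values lay below 0 for 8 of 10 genes at the low loading (50.2% of all genes did), 7 of 10 at the medium loading (45.2%) and 10 of 10 at the high loading (43.3%). The median log2 fold change over the 10 genes was -0.25, -0.15 and -0.35 at the low, medium and high loading, against -0.0013, 0.02 and 0.02 over all genes. The medians were -0.053, -0.16 and -0.42 without the libraries standing apart, and there were then 0, 0 and 1 of the 10 genes at an unadjusted p under 0.05. These 10 genes vary together between libraries, as described further on, so their directions are not separate observations.

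At the low loading the fitted log2 fold changes were -0.57 for Fos, -0.40 for Btg2, -0.33 for Junb, -0.30 for Nr4a1, -0.26 for Fosb, -0.24 for Egr1, -0.13 for Dusp1, -0.095 for Npas4, 0.038 for Arc and 0.097 for Sik1, with standard errors of 0.28 to 0.59. Only Fos and Btg2 lay more than 1 standard error from 0. At the medium loading they were -0.70 for Btg2, -0.64 for Npas4, -0.60 for Fos, -0.33 for Dusp1, -0.24 for Sik1, -0.050 for Fosb, -0.036 for Junb, 0.11 for Arc, 0.14 for Egr1 and 0.17 for Nr4a1, with standard errors of 0.26 to 0.55. None of these passed edgeR's test.

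The single striatal gene under an unadjusted p of 0.05 was Btg2 at the medium loading. Btg2 had a lowest, median and highest level of 6.71, 11.5 and 14.6 CPM in medium libraries and of 8.15, 13.6 and 48.8 CPM in sham libraries. The groups overlapped, and the highest sham value came from 1 library, sham 49. The fitted log2 fold change was -0.70 ± 0.30 (edgeR adjusted p = 1), but -0.32 without sham 49 and -0.36 without the libraries standing apart.

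Nr4a1 had 22.1, 80.5 and 126 CPM as lowest, median and highest level in high striatal libraries, against 17.4, 126 and 235 CPM in sham libraries. All the high libraries lay within the sham range, and the fitted difference was -0.47 ± 0.47 (edgeR adjusted p = 1). Junb had 21.2, 76.8 and 156 CPM in high libraries and 30.6, 100.4 and 194 CPM in sham libraries. These groups overlapped as well, and the fitted difference was -0.41 ± 0.39 (edgeR adjusted p = 1). Fos had 6.32, 15.3 and 32.1 CPM in high libraries and 6.38, 14.4 and 46.9 CPM in sham libraries, with a fitted difference of -0.39 ± 0.45. Its median was slightly higher in the high group while its mean was lower, at 16.5 ± 8.09 CPM in high libraries and 21.7 ± 16.4 CPM in sham libraries (SD, n = 8 each). Arc had 25.6, 143 and 285 CPM in high libraries and 40.4, 204 and 356 CPM in sham libraries (-0.20 ± 0.48). Dusp1 had 22.9, 38.5 and 82.9 CPM in high libraries and 17.2, 46.2 and 97.4 CPM in sham libraries (-0.23 ± 0.27). Egr1 had 19.1, 86.5 and 123.1 CPM in high libraries and 33.6, 109 and 137 CPM in sham libraries (-0.31 ± 0.38). For Arc, Dusp1 and Egr1 the high and sham ranges covered most of each other. The other fitted values at the high loading were -0.42 ± 0.29 for Btg2, -0.42 ± 0.26 for Sik1, -0.31 ± 0.39 for Fosb and -0.20 ± 0.55 for Npas4.

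Of the 10 genes, Sik1 had the smallest p for a slope with loading in the striatum, at rank 111 of 12267 genes tested. Its lowest, median and highest levels were 4.06, 12.4 and 20.9 CPM in sham, 7.98, 14.6 and 17.5 CPM in low, 4.94, 11.3 and 18.4 CPM in medium and 7.08, 8.98 and 12.9 CPM in high libraries. The high group had the lowest median and the narrowest range, which lay inside the sham range. The fitted slope was -0.05 ± 0.02 log2 units per percent loading (edgeR adjusted p = 1). Slopes were below 0 for 10 of 10 genes (45.4% of all genes), 1 of them at an unadjusted p under 0.05, and none passed edgeR's test, which called 0% of genes, or DESeq2. The test of any difference among the 4 groups called none of the 10 with edgeR (0.0245% of genes, 3 in all), with 0 at an unadjusted p under 0.05, and none with DESeq2.

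In the cerebellum, where the 3 comparisons share 7 sham libraries, no immediate early gene passed edgeR's test at any loading either, and 0% of 11946 genes did. There were 0, 1 and 2 of the 10 genes at an unadjusted p under 0.05 at the low, medium and high loading, and DESeq2 called 0. At the low loading 8 of 10 fitted values lay below 0 (56.4% of all genes). At the medium loading 8 of 10 lay above 0 (49.7% of all), but 3 of 10 without the libraries standing apart and 2 of 10 without medium 40. At the high loading 8 of 10 lay below 0 (52.7% of all). The median log2 fold change was -0.07, 0.24 and -0.17, against -0.03, -0.0011 and -0.03 over all genes. Without medium 40 the median at the medium loading was -0.11, and without the libraries standing apart the 3 medians were -0.10, -0.061 and -0.52.

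At the low loading the largest fitted values in the cerebellum were -0.59 ± 0.55 for Nr4a1 and -0.46 ± 0.71 for Fos, followed by Fosb at -0.37, Dusp1 at -0.29, Arc at 0.16, Sik1 at -0.086, Egr1 at 0.060, Junb at -0.056, Npas4 at -0.019 and Btg2 at -0.0048. At the medium loading, beside Arc and Junb described further on, Egr1 stood at 0.37 ± 0.50, Npas4 at 0.31 ± 0.80, Btg2 at 0.29 ± 0.28, Fosb at 0.19 ± 0.62, Sik1 at -0.15 ± 0.46, Dusp1 at 0.13 ± 0.38, Nr4a1 at -0.045 ± 0.55 and Fos at 0.039 ± 0.71. At the high loading, beside Fosb, Sik1, Junb and Dusp1 described further on, Nr4a1 stood at -0.54 ± 0.55, Egr1 at -0.49 ± 0.50, Fos at -0.21 ± 0.71, Arc at -0.13 ± 0.41, Btg2 at -0.095 ± 0.28 and Npas4 at -0.094 ± 0.81. Of these values, those of Nr4a1 at the low loading and Btg2 at the medium loading exceeded their standard error, and none passed edgeR's test.

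Fosb showed the largest fitted exposure difference of the 10 genes. Its lowest, median and highest levels were 0.282, 0.619 and 1.12 CPM in high cerebellar libraries and 0.442, 1.36 and 5.29 CPM in sham libraries. Of the low and medium groups, the medians were 1.48 and 0.965 CPM. The high range overlapped the lower part of the sham range, and these are few reads, 2 to 11 per high library. The fitted difference was -1.91 ± 0.67 (edgeR adjusted p = 0.417), and it ran from -2.09 to -1.58 when each library was left out in turn.

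Sik1 had 0, 2.24 and 5.01 CPM in high cerebellar libraries and 1.80, 4.27 and 8.59 CPM in sham libraries as lowest, median and highest level. The groups overlapped, and the library at 0, high 43, was the one richest in ribosomal protein transcripts, where 3 reads would be 0.316 CPM. The fitted difference was -1.06 ± 0.47 (edgeR adjusted p = 0.417), but -0.62 without the libraries standing apart. The slopes with loading were -0.10 ± 0.04 log2 units per percent for Sik1 (edgeR adjusted p = 0.169) and -0.15 ± 0.07 for Fosb (edgeR adjusted p = 0.221). Those were the 2 members with an unadjusted p under 0.05 in the trend, where edgeR called 0% of genes and 7 of the 10 slopes lay below 0 (54.3% of all genes). The slope of Sik1 was -0.053 and that of Fosb -0.17 without the libraries standing apart, where 10 of the 10 lay below 0. DESeq2 called 901 genes in the cerebellar trend, and none of the 7 members for which it gave an adjusted p.

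Arc at the medium loading turned with 1 library. It had 18.5, 21.0 and 203 CPM as lowest, median and highest level in medium cerebellar libraries and 20.4, 23.4 and 25.2 CPM in sham libraries. The medium median lay below the sham median, while the mean was 43.4 ± 64.6 CPM in medium libraries and 23.1 ± 2.07 CPM in sham libraries (SD, n = 8 and 7). The fitted difference was 0.91 ± 0.41 (edgeR adjusted p = 0.999), but -0.17 without medium 40 and -0.15 by DESeq2. Junb at the medium loading was 0.72 ± 0.40 (edgeR adjusted p = 0.999), and 0.11 without medium 40. At the high loading Junb and Dusp1 lay above sham by 0.45 ± 0.39 and 0.42 ± 0.38, but at -0.20 and -0.54 without the libraries standing apart.

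In the test of any difference among the 4 cerebellar groups, Fosb (edgeR adjusted p = 0.41) and Arc (edgeR adjusted p = 0.476) were the 2 of 10 genes at an unadjusted p under 0.05, and 0% of genes passed. DESeq2 called 153 genes there and gave no adjusted p for any of the 10. Whether the exposure differences differ between the regions was tested as an interaction over all 61 libraries. None of the 10 genes passed edgeR's interaction test (0% of 12616 genes did), none was at an unadjusted p under 0.05, and DESeq2 called none.

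The other genes of the pathway gave the same count of calls. Of the other rapid response genes, 41 were tested in striatum and 40 in cerebellum, and none passed edgeR's test at any loading. At an unadjusted p under 0.05 there were 1, 2 and 1 of them at the low, medium and high loading in the striatum and 0, 2 and 0 in the cerebellum. DESeq2 called no gene of any kind in the 6 comparisons except 1 at the high loading in the cerebellum. The median log2 fold changes of the list were -0.14, 0.03 and -0.08 in the striatum and -0.07, 0.14 and -0.16 in the cerebellum. Mcl1, a survival protein of the BCL2 family, had the smallest p among those above sham at each loading in the striatum, at 0.40 ± 0.12, 0.24 ± 0.11 and 0.20 ± 0.11 (edgeR adjusted p = 0.905, 1 and 1). Ccn1, a secreted matrix protein, had a fitted value of -1.0 ± 0.50 at the medium and -1.04 ± 0.49 at the high loading in the striatum (edgeR adjusted p = 1 for each), but -0.28 and -0.74 without the libraries standing apart. The lists of delayed genes, signalling genes and glucocorticoid response genes also had none past edgeR's test at any loading in either region, with 0 to 2 genes of a list at an unadjusted p under 0.05.

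Exposure groups aside, medians of several of these genes lay apart between runs of animal numbers, but not past the test. The labels name cohorts without saying which rats formed them, so runs of 15 numbers (1 to 15, 16 to 30, 31 to 45 and 46 to 60) were compared in their place. The match of runs to cohorts is an inference. Each run held 1 or 2 libraries of each exposure group and region. In the cerebellum, the median of Fos was 11.1, 14.2, 49.5 and 24.4 CPM in runs 1 to 4. Nr4a1 had medians of 16.8, 25.2, 65.2 and 38.4 CPM, and Npas4 of 0.848, 1.94, 8.09 and 4.30 CPM. Dusp1 had medians of 35.7, 52.96, 86.8 and 49.4 CPM. The run of numbers 31 to 45 had the highest cerebellar median for these 4 genes and for every other member but Arc (22.9 CPM, against 23.3 in run 1). Some of these medians differed little, as for Junb (19.7 CPM, against 19.1 in run 1). In the striatum numbers 31 to 45 also had the highest median for every member but Npas4 (22.5 CPM, against 23.2 in run 4). The striatal medians of Nr4a1 were 59.4, 83.6, 131 and 112 CPM in runs 1 to 4. Those of Arc were 106, 153, 265 and 227 CPM. Here too some medians differed little, as for Fosb (15.3 CPM, against 14.96 in run 4). The run differences did not pass edgeR's test for any gene in either region (0% of genes). At an unadjusted p under 0.05 there were 2 of the 10 genes in the cerebellum, Dusp1 and Nr4a1 (edgeR adjusted p = 1 for each), and 0 in the striatum, and DESeq2 called none of the 10. With the run as a block, edgeR called 0 of the 10 in any exposure comparison.

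Some of these genes were high or low together in both regions of the same-numbered rats. Among 29 numbers with a striatal and a cerebellar library of the same exposure group, log2 CPM residuals from the group means were correlated between the regions for every gene. The number is read as the animal and the labels do not say so. Fos correlated at r = 0.77 (rho = 0.69; permutation p = 1e-05, the smallest 100000 resamples can give, Benjamini-Hochberg adjusted p = 0.00216 over 11658 genes). In sham rats, number 32 had 43.96 CPM of Fos in the striatum and 78.6 CPM in the cerebellum, and number 48 had 6.38 and 3.10 CPM. Sham 32 was thus the second highest in the striatum and the highest in the cerebellum, and sham 48 was near the low end of both.

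Nr4a1 correlated between the regions at r = 0.71 (rho = 0.69, permutation p = 1e-05, adjusted p = 0.00216) and Npas4 at r = 0.64 (rho = 0.60, permutation p = 0.0002, adjusted p = 0.00409). Dusp1 had r = 0.55 (rho = 0.54, permutation p = 0.00245, adjusted p = 0.0116). Fosb and Btg2 passed with r = 0.47 and 0.46 (permutation p = 0.00966 and 0.0129, adjusted p = 0.0305 and 0.0375). Junb at 0.26, Egr1 at 0.25, Sik1 at 0.21 and Arc at 0.07 did not (adjusted permutation p = 0.288, 0.308, 0.403 and 0.793). The background was again large, since 37.6% of genes passed, with a median r of 0.34 and 90% of genes between -0.16 and 0.66. Only Fos and Nr4a1 of the 10 had an r above that band.

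The correlations depended on which libraries entered. Without the 2 numbers farthest from the striatal median, Fos had r = 0.65, Nr4a1 0.65, Npas4 0.54, Dusp1 0.61 and Fosb 0.52, all still past the permutation test, while Btg2 at 0.37 was lost and Egr1 at 0.51 was gained (adjusted permutation p = 0.14 and 0.0366). Without the libraries standing apart, 16 numbers were left and none of the 10 genes passed, with r = 0.76 for Nr4a1, 0.75 for Dusp1, 0.66 for Fos and 0.51 for Npas4 (adjusted permutation p = 0.088, 0.111, 0.194 and 0.403). With the run means removed as well, Fos (0.74), Npas4 (0.69), Nr4a1 (0.60) and Dusp1 (0.53) passed the permutation test, and Fosb and Btg2, each at 0.36, did not. Many other genes passed too. Of 11658 genes, 2730 passed without the 2 farthest numbers, 56 without the libraries standing apart and 4449 with the run means removed. With all libraries and group means alone removed, 4385 passed. Within runs 1 to 4, Fos had r = 0.90, 0.86, -0.06 and 0.78, over 7, 8, 7 and 7 numbers. Nr4a1 had 0.53, 0.48, 0.44 and 0.92, and Npas4 0.42, 0.82, 0.52 and 0.89. Dusp1 had 0.64, 0.80, 0.27 and -0.55, Fosb 0.23, 0.43, 0.56 and 0.36, and Btg2 0.42, 0.71, -0.27 and 0.55. The value of Fos was thus near 0 in the run of numbers 31 to 45, where its cerebellar median was highest, those of Nr4a1, Npas4 and Fosb were above 0 in each run, and that of Dusp1 was below 0 in the run of numbers 46 to 60.

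**Figure D4:**
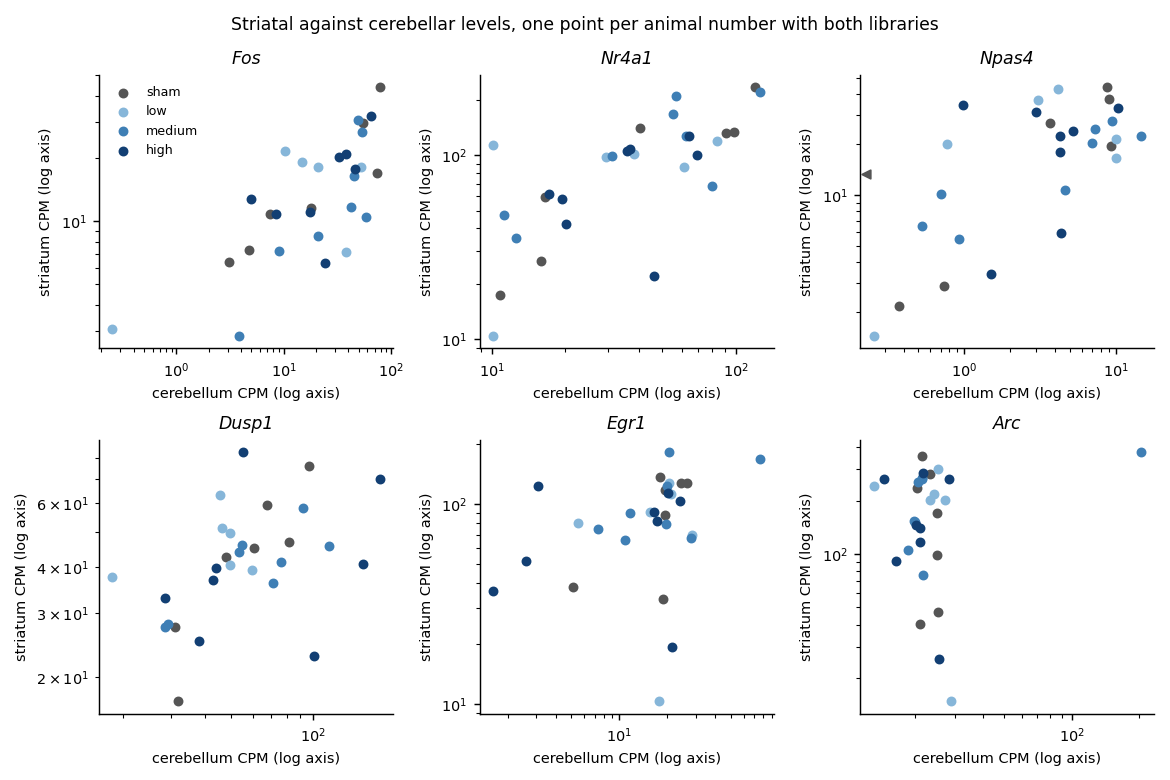
Striatal CPM (vertical, log axis) against cerebellar CPM (horizontal, log axis) of 6 genes, with 1 point per number that had both libraries, coloured by implant loading, and a triangle at the left edge for a cerebellar level of 0. Points rise together for Fos, Nr4a1 and Npas4, while those of Arc form a vertical band with medium 40 alone at the right.

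Within a region, the genes were compared with Fos across libraries. In the striatum the 30 libraries gave r = 0.79 for Nr4a1 and for Junb, 0.76 for Dusp1, 0.75 for Arc, 0.73 for Npas4 and 0.69 for Fosb, all past the permutation test. Of 12266 genes only 11 passed (0.0897%), and Nr4a1 and Junb ranked first and second of them by r. The permutation p was 1e-05 for the first 5 of these genes (adjusted p = 0.0175) and 4e-05 for Fosb (adjusted p = 0.0446), with rho between 0.68 and 0.86. Btg2 (r = 0.62), Egr1 (0.56) and Sik1 (0.43) did not pass (adjusted permutation p = 0.128, 0.36 and 0.497). Without the 2 libraries farthest from the Fos median no gene passed, with r between 0.61 and 0.80 for the 6 genes. Without the libraries standing apart, 413 genes passed, among them 8 of the 9 members tested against Fos, with Btg2 at 0.62 outside (adjusted permutation p = 0.0542). Within runs 1 to 4, Nr4a1 had r = 0.61, 0.86, 0.91 and 0.79 and Dusp1 0.66, 0.74, 0.85 and 0.84. Junb had 0.38, 0.93, 0.87 and 0.93, Arc 0.38, 0.93, 0.54 and 0.89, Npas4 0.53, 0.78, 0.41 and 0.93, and Fosb 0.21, 0.87, 0.69 and 0.79. The values of all 6 genes were above 0 in each run, and run 1 had the lowest value for each except Npas4.

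In the cerebellum 3 genes followed Fos closely. Nr4a1 had r = 0.87, Npas4 0.85 and Dusp1 0.79 over 31 libraries (rho = 0.92, 0.89 and 0.81; permutation p = 1e-05 and adjusted p = 0.0239 for each), the 3 highest values of 11945 genes, of which 5 passed (0.0419%). The number of genes past the test depended on the number of resamples here too. Fosb at 0.61, Btg2 at 0.41, Junb at 0.31, Sik1 at 0.20, Egr1 at 0.11 and Arc at 0.06 did not pass (adjusted permutation p = 0.432 for Fosb and 1 for the others). The 3 genes also passed without the 2 libraries farthest from the Fos median (r = 0.90, 0.85 and 0.75), with the run means removed (0.82, 0.80 and 0.75) and without the libraries standing apart (0.94, 0.91 and 0.94, n = 21). Within runs 1 to 4, Npas4 had r = 0.82, 0.81, 0.62 and 0.89 and Nr4a1 0.91, 0.80, 0.34 and 0.94. Dusp1 had 0.93, 0.91, 0.37 and 0.30, lower in the last 2 runs than in the first 2. The r of Arc with Fos was thus 0.75 in the striatum and 0.06 in the cerebellum, and that of Egr1 0.56 and 0.11; the differences between regions were not tested.

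**Figure D5:**
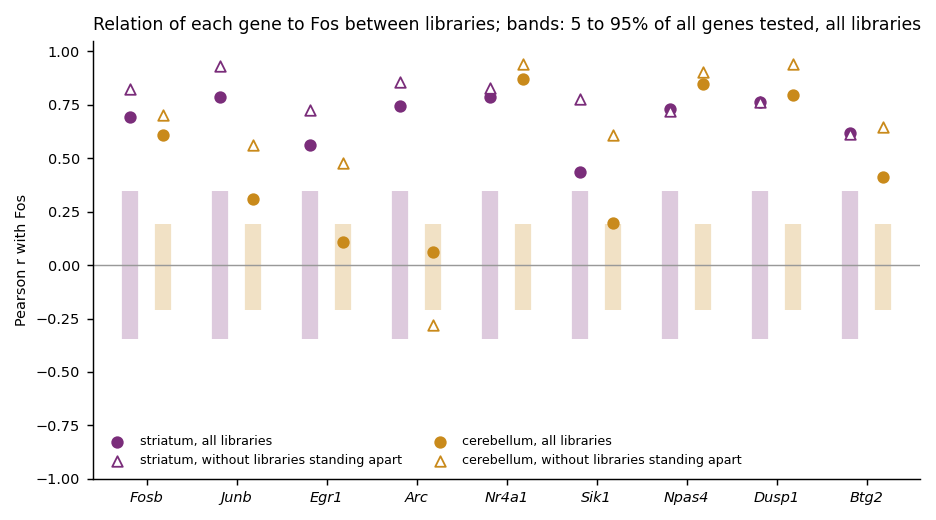
Pearson r of each gene with Fos between libraries of the striatum (purple) and the cerebellum (orange), for all libraries (circles) and without those standing apart (triangles), with bars for the range from the 5th to the 95th percentile of all genes tested. In the striatum all 9 circles lie above the bar, which ends at 0.34, while in the cerebellum Egr1 and Arc lie inside the bar and Nr4a1, Npas4 and Dusp1 lie near or above 0.79.

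The 45 pairs of the 10 genes had a median r of 0.62 in the striatum, from -0.04 for Egr1 with Btg2 to 0.96 for Arc with Nr4a1. In the cerebellum the median was 0.40, from -0.38 for Junb with Sik1 to 0.94 for Nr4a1 with Npas4. These values describe 30 and 31 libraries, and the pairs share libraries and genes, so the difference of the medians was not tested.

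The genes outside the 10 with the most similar pattern were found by their mean r with the members. In the striatum these were Egr2 (mean r = 0.73), Mir132 (0.69), Egr4 (0.62), Rgs2 (0.62), Slc25a25 (0.61), Trib1 (0.61), Xkr8 (0.61) and Fmnl1 (0.61), over 30 libraries. In the cerebellum they were Nr4a2 (0.48), Mal2 (0.46), Pdp1 (0.45), Egr4 (0.44), Spata2L (0.43), Dnajb5 (0.42), Arpp21 (0.41) and Trib1 (0.40), over 31 libraries. Egr4, an EGR family factor, and Trib1, a pseudokinase, were in both sets. Without the libraries standing apart, Egr2 (0.79) and Trib1 (0.70) were kept among the first 8 in the striatum, and Nr4a2 (0.62) and Egr4 (0.53) in the cerebellum.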

How the data were processed

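Each region had 1 table of deposited read counts by NCBI Gene ID, whole numbers throughout, with 30 striatal and 31 cerebellar libraries. The submitters' processing notes name FastQC, HISAT2 and rn6; for the counter and its strand setting, the answer is not given in the sources used here. Extraction protocols in the labels say that mRNA was obtained either by poly(A) capture or by depleting rRNA, with no choice stated per library. Within a region every library has its own number, read as the animal although the labels do not say so, which gives 32 rats, 29 with both regions. The comparison of regions treats the libraries as independent, with a block for the number as an alternative. Symbols came from RefSeq's gene table (14163 striatal and 14063 cerebellar genes matched), and promoter windows are from the GRCr8 build, not used with rn6 coordinates.

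The deposited counts were scaled by the trimmed mean of M values, filtered with filterByExpr (12267, 11946 and 12616 genes left for striatum, cerebellum and both) and tested with edgeR 4.0.16 in R 4.3.3 (robust quasi-likelihood fit, two-sided p, Benjamini-Hochberg over all genes). Each region had 1 fit of 4 groups, and the regions were compared in a fit of 8 groups. Standard errors given with edgeR values are the absolute log2 fold change divided by the square root of the test's F, an approximation. Relations used log2 CPM (prior count 2) residuals from exposure group means, Pearson's r and Spearman's rho, with two-sided permutation tests of 100000 resamples (Python 3.11.15, numpy 2.4.6, numba 0.67.0). Limits from 0 reads use 3 reads and cover counting error only. Alternatives were DESeq2 1.42.0, relative log expression size factors, no filter or a mean CPM of 1, a block for the run, leaving out libraries standing apart or each library in turn, and a block for the number. Leaving out cerebellar medium 40 and removing run means were added after seeing the data. The procedure was tested on simulated data. For high over sham in the striatum, it recovered 26.9%, 80.6% and 98.5% of genes changed 1.5-fold, 2-fold and 4-fold. In the cerebellum it recovered 10.4%, 35.8% and 77.3%, so most 2-fold changes were missed there. Between the regions in sham it recovered 23.9%, 53.7% and 90.9%. Genes not changed made up 6.8%, 6.82% and 6.67% of the calls in that order. The changed genes were drawn at random from all genes. In the striatum each of the 10 immediate early genes had a larger SD than at least 77% of genes. The share recovered may thus be lower for them, and the simulation did not measure it.

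The 10 genes and the pathway and marker lists were chosen with earlier results of these data known. The rule names all 10 in every comparison; for slopes, overall tests, the interaction and runs, values are given for those at an unadjusted p under 0.05 and counts for the rest. Eligible beside them: of each other list up to 2 genes per direction with the smallest p, and per region the 8 other genes with the highest mean r with the members.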

Additional observations from a re-analysis of the deposited data

Results flagged for a closer look

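Dixon's test was applied to CPM in 80 groups of libraries (10 genes, 2 regions and 4 loadings). In 12 of them, 3 in the striatum and 9 in the cerebellum, 1 library lay far from the others of its group. The limits of this test assume a normal spread, and CPM was not put on a log scale. The groups also share libraries, and the genes vary together, so the share expected by chance is not known. In the cerebellum, medium 40 was highest for Arc at 203 CPM (next 21.7 CPM), Junb at 108 CPM (next 34.96), Egr1 at 76.7 CPM (next 27.9) and Fosb at 12.3 CPM (next 4.54). Sham 48 was highest for Junb at 30.6 CPM (next 20.3) and Btg2 at 19.5 CPM (next 11.1), and lowest for Egr1 at 5.08 CPM (next 17.9). High 28 was highest for Npas4 at 10.32 CPM (next 5.21). Low 53 was highest for Fosb at 5.43 CPM (next 2.61). In the striatum, low 20 was lowest for Arc at 14.8 CPM (next 200.5) and Nr4a1 at 10.4 CPM (next 86.2), and sham 49 was highest for Btg2 at 48.8 CPM (next 22.9). All of these libraries except low 53 stood apart in ribosomal protein or neuron transcripts, and the part of that content in these levels was not tested.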

How the results depend on the processing

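Of 1046 values of the 10 genes recomputed under other settings than leaving out single libraries, 982 kept their direction and side of the threshold, 26 were no longer past it, 4 became so and 34 changed sign. The 6 larger region calls (Arc, Junb, Egr1, Fosb, Npas4 and Sik1) held under each setting and in all 61 fits that left out a library.
Without libraries standing apart, log2 values turned to 0.20 (striatum low, Npas4), 0.16 and 0.15 (cerebellum low, Npas4 and Btg2), -0.0695, -0.59, -0.053, -0.15 and -0.20 (cerebellum medium, Fos, Fosb, Junb, Arc and Dusp1), -0.20, 0.0128, -0.54 and -0.29 (cerebellum high, Junb, Arc, Dusp1 and Ier2) and -0.0698, -0.018 and -0.0425 (cerebellum trend, Fos, Junb and Dusp1). Correlations between regions turned to -0.0323, -0.24 and -0.43 (Junb, Egr1 and Arc), and Arc with Fos in the cerebellum to -0.28. Without cerebellar medium 40, medium values turned to -0.0422, -0.82, -0.16, -0.17, -0.061, -0.0407 and -0.10 (Fos, Fosb, Egr1, Arc, Npas4, Dusp1 and Plk2), and Arc to r = -0.27 between regions and -0.0842 with Fos. DESeq2 gave -0.15 and -0.11 for Arc and Plk2 at the cerebellar medium loading. With the run as a block, Fosb at the cerebellar medium loading was -0.0381, Fos and Npas4 at the high loading 0.0116 and 0.0388 and the Npas4 trend 0.0204; no filter gave -0.0018 for the Fos trend; with run means removed Arc was at r = -0.08 between regions and -0.0751 with Fos in the cerebellum. The causes were not tested.
Counts over all genes moved. Any exposure in the striatum (3 genes) became 0 by DESeq2, with the run block and without libraries standing apart, 11 without a filter, 10 at a mean CPM of 1, and 0 to 6 with single libraries left out. DESeq2 called 1 gene for the striatal run, 1 for cerebellum high, 153 for any cerebellar exposure, 901 for the cerebellar trend, 2 for the cerebellar run and 7 for the interaction, against 0 each by edgeR. Leaving out single libraries gave 0 to 3 genes for any cerebellar exposure, 0 to 1635 for the cerebellar trend (1635 without sham 48) and 0 to 4 for the interaction. Without libraries standing apart the cerebellar run had 10, the region comparison 8434 (5431 with all), the correlation between regions 56 (4385 with all, 2730 without the 2 farthest) and the relation to Fos 413 in striatum and 42 in cerebellum. That relation in the striatum was 5 without removal of group means, 0 without the 2 farthest and 7 with run means removed, and 3 in the cerebellum with run means removed. The smallest p that the resamples can give limits these counts of genes related to Fos.
Same-numbered libraries of 29 rats correlated over genes at r = -0.24 to 0.82, with a median of 0.345. Of these pairs 21 lay above 0.1, the minimum set for pairing samples. The main region comparison was still not blocked by number, although the number is read as the animal, so it leaves this pairing out. A replicate block for the number gave Btg2 at 0.29 (edgeR adjusted p = 0.257), Nr4a1 at 0.96 (0.0171) and Tsc22d3 at -0.45 (0.0346) in the region comparison. In 5 striatal and 4 cerebellar libraries the best match was the own number. Btg2 passed in 22 of 61 fits that left out a library. With 2 to 98 reads of Fosb per cerebellar library, depth limits what could be seen there.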
